A study of Rattus norvegicus with 72 samples.

Results

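Racgap1 and 9 other genes of the cell division machinery were followed in rat dorsal root ganglia during the first 28 h after a sciatic nerve lesion. The 10 genes were Racgap1, Ect2, Aurkb, Mki67, Top2a, Cdk1, Ccnb1, Ccnd1, Ccne1 and Pcna, out of 14217 genes with a named probe set on the Affymetrix rat array. Each gene was read from its brightest probe set among those annotated to that 1 symbol, by the mean over all 72 arrays, and its other probe sets served as a check. Racgap1 was chosen by its low log2 intensity in proximal against sham ganglia at 18 to 28 h, and the other 9 for their role in division. Values and calls in that comparison are therefore given as a description and not read as a test. The question was whether Racgap1 was lower by itself or together with genes of the cell cycle.

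The ganglia were L4 and L5, from adult Wistar rats 8 to 12 weeks old. The groups were proximal lesion (22 arrays), distal lesion (29 arrays) and sham surgery (21 arrays), each sampled at 8 hours (1, 3 and 8 h early, 12 and 16 h in the middle, and 18, 24 and 28 h late), with 1 to 6 arrays per lesion and hour and a single sham array at 16 h. The labels name crush as the lesion, and give neither the distance of either lesion site from the ganglion nor whether the arrays of a group came from separate animals, and the p-values therefore cover only variation from array to array, which may be technical. Values are log2 intensities made with RMA, on which a difference of 1 is a doubling. Tests averaged over the early, middle and late hours. The number of arrays limits the precision. Levels are compared within a probe set only.

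The tissue was whole ganglion, and neuronal markers were among its brightest probe sets, with Nefh, a neurofilament subunit, at a mean of 14.2, and Calca, the precursor of the neuropeptide CGRP, at 13.4. By their dim probe sets the arrays were clustered into 4 sets, a number fixed in the clustering. They are called technical sets here, but the sample titles name no batch. Proximal and sham arrays at 3 and 8 h all fell in one set, and those at 1, 24 and 28 h in another. The largest set held 27 of the 29 distal arrays and no proximal or sham array. Distal arrays were for this reason compared mainly with each other over time, and in any level set between distal and sham, lesion and array set cannot be told apart. Atf3, a transcription factor induced by axon injury, was at 11.88 to 12.68 in proximal and 10.99 to 12.41 in distal arrays at 18 to 28 h, against 7.83 to 10.16 in sham arrays. Sham array b at 12 h had Atf3 at 11.55, inside the range of the injured arrays, against 7.32 in its partner, and goes against its label. The results that rest most on it are given with and without it.

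Racgap1 encodes a GTPase activating protein for Rac and Cdc42 and, with the kinesin Kif23, forms the centralspindlin complex at the middle of the mitotic spindle. Centralspindlin recruits the exchange factor Ect2, which starts the contraction of the cleavage furrow, and the kinase Aurkb regulates the same complex. Sensory neurons are postmitotic, so in a ganglion the usual source of mitotic transcripts is dividing glia, immune cells or other support cells. Racgap1 is also known from neurons, where a role in neurite growth and migration has been described in rodents and flies.

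In distal ganglia Racgap1 fell with time after the lesion, and no distal array had served in choosing it. At 1 h it was at 9.36, 9.35, 9.56 and 9.42, and at 3 h at 9.37, 9.41 and 9.37. At 8 h the 5 distal arrays ranged from 8.91 to 9.18 with a median of 9.17. Its level was lower at 12 h, with 8.67, 8.85 and 9.14, and at 16 h, with 8.46 and 8.48. At 18 h the 6 arrays ranged from 7.89 to 8.55 with a median of 8.33. The lowest distal values came last, at 8.06, 7.86 and 8.07 at 24 h and 7.73, 7.88 and 7.89 at 28 h. Every one of the 12 distal arrays at 18 to 28 h lay below every one of the 12 at 1 to 8 h.

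Racgap1 averaged 8.09 ± 0.26 in distal ganglia at 18 to 28 h, against 9.29 ± 0.17 at 1 to 8 h (SD, n = 12 each). The fitted log2 difference, with each hour weighted equally, was -1.28 (SE 0.10, 0.412-fold, limma adjusted p = 7.4e-16). It ranked 10 from the lowest among 12276 tested genes. Of these, 25.3% were called at an adjusted p under 0.05 in that comparison, and 0.391% had all late arrays below all early ones. Within the largest technical set alone the fitted difference was -1.25, with means of 8.10 at 18 to 28 h and 9.27 at 1 to 8 h (11 arrays each). In bulk tissue, fewer cells that express a gene and less RNA per cell cannot be told apart.

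The fall was already measurable by the middle of the course. Racgap1 averaged 8.72 ± 0.28 in distal ganglia at 12 and 16 h (SD, n = 5), and the fitted difference from 1 to 8 h was -0.63 (SE 0.12, limma adjusted p = 0.0018). In that comparison 1.4% of all tested genes were called. Without the 16 h arrays the difference was -0.42 (limma adjusted p = 0.206), so the call at this stage rested on the pair of arrays at 16 h.

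**Figure D1:**
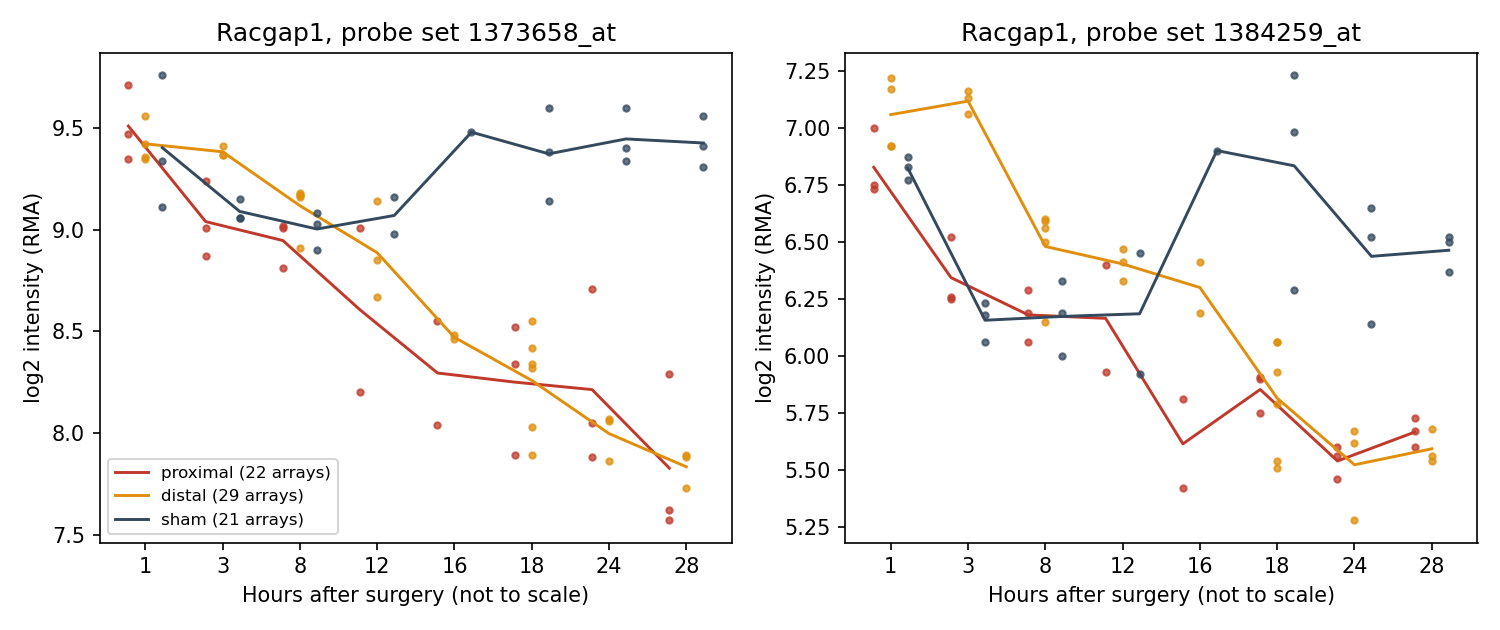
Log2 intensity of Racgap1 (vertical axis) at each of the 8 hours (horizontal axis, evenly spaced) for its brightest probe set (left) and its second probe set (right). Points are arrays and lines join the means of proximal, distal and sham groups. After both lesions the level was lowest at 24 or 28 h, and sham arrays at 18 to 28 h stayed between 9.14 and 9.60 on the brightest probe set.

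Sham ganglia showed no such fall. Racgap1 was at 9.76, 9.34 and 9.11 in sham arrays at 1 h, at 9.06, 9.15 and 9.06 at 3 h and at 8.90, 9.03 and 9.08 at 8 h. It was at 9.38, 9.60 and 9.14 at 18 h, at 9.40, 9.60 and 9.34 at 24 h and at 9.56, 9.31 and 9.41 at 28 h. The sham difference between 18 to 28 h and 1 to 8 h was 0.25 (SE 0.11, limma adjusted p = 0.0574), in the opposite direction and short of the threshold, where 40.3% of all genes were called. The distal change over time minus the sham change over time was -1.53 (SE 0.14, limma adjusted p = 1.1e-11), in a comparison that called 30% of all genes. With the technical set as a random block, added after the values were seen, the sham difference was 0.06 (limma adjusted p = 0.89) and the distal minus sham change -1.31 (limma adjusted p = 2.73e-07). The late sham arrays in these values had also served in choosing Racgap1. Without sham array c at 24 h, which had the highest late sham value of Atf3, the distal minus sham change was -1.55.

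In proximal ganglia the level of Racgap1 followed a like course. At 1 h it was at 9.71, 9.35 and 9.47 in proximal arrays, at 3 h at 9.01, 8.87 and 9.24, and at 8 h at 9.01, 9.02 and 8.81. Over these early hours the proximal and sham arrays overlapped, and their difference was 0.00 (95% interval -0.22 to 0.22, limma adjusted p = 0.999). At 1 to 8 h, limma called 0 of the 9 tested members between proximal and sham (1 of 9 at an unadjusted p under 0.05), where 0.13% of all genes were called.

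At 12 h Racgap1 was at 8.20 and 9.01 in proximal arrays, against 8.98 and 9.16 in sham arrays. At 16 h it was at 8.04 and 8.55 in proximal arrays, against 9.48 in the one sham array. Of these proximal arrays, the one at 8.55 shared the technical set of the sham array and the one at 8.04 did not. That sham array had Atf3 at 9.97, above the 6.14 to 7.85 of sham arrays at 1 to 8 h. Over both hours it was lower in proximal ganglia by a log2 difference of -0.83 (SE 0.18, limma adjusted p = 0.0381), or -0.78 (limma adjusted p = 0.0365) without the sham array whose Atf3 goes against its label. Racgap1 was the 1 member called, where 0.114% of all genes were. With the array letter as a replicate block, which raised the called genes to 4432 against 14 without it, Ect2 was called too (-0.51, limma adjusted p = 0.0299). Without a block, the Racgap1 call was lost without proximal array a at 12 h (-0.63) and without proximal array a at 16 h (-0.70). It was also lost without the sham array at 16 h (-0.47). With the technical set as a block the Racgap1 difference was -0.71, and the call held.

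At 18 h Racgap1 was at 8.34, 8.52 and 7.89 in proximal arrays, and at 24 h at 8.05, 7.88 and 8.71. At 28 h it was at 8.29, 7.57 and 7.62. All 9 proximal arrays of these hours lay below all 9 sham arrays, whose values are given above. The log2 difference was -1.13 at 18 h, -1.23 at 24 h and -1.60 at 28 h, and -1.32 over the 3 hours (0.40-fold), the lowest of all 12276 tested genes, as the choice of Racgap1 from this comparison implies.

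Between distal and sham ganglia at 18 to 28 h Racgap1 differed by -1.39 (SE 0.10), and most other members were lower too. Of the 9 tested members 6 were called lower, Racgap1, Top2a (-0.49), Ect2 (-0.48), Aurkb (-0.37), Cdk1 (-0.25) and Ccne1 (-0.25), and 1 was called higher, Pcna (0.62). Of 13 genes of cytokinesis and the central spindle 12 were called lower, with a median difference of -0.48 beside 0.031 for all tested genes. There, 61.8% of all genes were called (29.5% lower and 32.3% higher), and array set and lesion cannot be told apart. With the technical set as a random block 88 genes were called, and of the members Racgap1 alone kept its call (-1.49, limma adjusted p = 0.00119).

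A second, dimmer probe set of Racgap1 gave the same picture in distal ganglia. It correlated with the brightest one at r = 0.85 over the 72 arrays, which share RNA and normalization. On it, distal arrays averaged 5.82 at 18 h, 5.52 at 24 h and 5.60 at 28 h, and 7.06 at 1 h, 7.11 at 3 h and 6.48 at 8 h. The distal difference between 18 to 28 h and 1 to 8 h was -1.24 (SE 0.08, limma adjusted p = 1.23e-17), and again no late array reached an early one. In proximal against sham ganglia at 18 to 28 h it gave -0.89, a smaller difference than the brightest one. At 12 and 16 h it gave -0.65, which did not pass, with -0.02 at 12 h.

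The partners of Racgap1 in cytokinesis did not pass the test on their brightest probe sets. Ect2 ranged from 4.89 to 5.89 with a median of 5.33 in distal arrays at 18 to 28 h, against 5.03 to 6.02 with a median of 5.31 at 1 to 8 h. By hour its distal means were 5.61 at 18 h, 5.19 at 24 h and 5.08 at 28 h, and 5.43 at 1 h, 5.29 at 3 h and 5.36 at 8 h. The Ect2 ranges overlapped almost wholly, and the difference was -0.07 (95% interval -0.27 to 0.14, limma adjusted p = 0.683). Kif23, the other subunit of centralspindlin, differed by -0.03 (95% interval -0.22 to 0.15, limma adjusted p = 0.833), and its second probe set, dimmer than the filter, by -0.22 (limma adjusted p = 0.0306). Aurkb, the kinase of the chromosomal passenger complex, ranged from 5.19 to 5.93 at 18 to 28 h and from 5.21 to 5.93 at 1 to 8 h. Its difference was -0.02 (95% interval -0.18 to 0.13, limma adjusted p = 0.854).

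These probe sets were dim, which limits what they can show. Ect2, Aurkb, Kif23 and Top2a had mean levels at percentiles 25.6, 30.4, 29.9 and 27.1 of all probe sets, just above the filter at percentile 25, against percentile 75.8 for Racgap1. A change near the lower end of the range is understated on arrays. Mki67, the proliferation marker Ki-67, lay below the filter, at percentile 11.9, which left 9 of the 10 members in the tests. With no filter its distal difference was -0.19 (95% interval -0.36 to -0.02, limma adjusted p = 0.104), with 4.47 to 4.95 at 18 to 28 h against 4.44 to 5.41 at 1 to 8 h.

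Among the genes of DNA synthesis and mitotic entry, Top2a, the topoisomerase that untangles replicated chromosomes, did not pass the test in distal ganglia over time. Its difference was -0.18 (95% interval -0.38 to 0.02, limma adjusted p = 0.189), with 4.92 to 5.99 at 18 to 28 h against 5.16 to 5.93 at 1 to 8 h. It passed within the largest technical set (-0.24, limma adjusted p = 0.00998) and with the set as a block (-0.22, limma adjusted p = 0.0198). The late arrays of Top2a were lower at 24 and 28 h (means 5.12 and 5.11) than at 18 h (5.50).

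Cdk1, the kinase that drives entry into mitosis, fell in distal ganglia over time, by less than Racgap1. It was at 5.92 to 6.60 at 18 h, at 6.17, 5.83 and 6.08 at 24 h and at 6.04, 6.13 and 6.22 at 28 h. Early distal arrays held 7.0, 6.74, 6.89 and 6.47 at 1 h, 6.74, 6.45 and 6.54 at 3 h, and 6.12 to 6.55 at 8 h. The groups overlapped, since the 8 h arrays reached down to 6.12, and the 12 and 16 h arrays, at 6.57 to 6.92, lay as high as the first hours. The fitted difference was -0.38 (SE 0.09, 0.769-fold, limma adjusted p = 0.000771).

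Ccnb1, the cyclin B1 partner of Cdk1, fell by 0.19 on the log2 scale in distal ganglia (SE 0.07, limma adjusted p = 0.0328). It ranged from 7.24 to 7.93 with a median of 7.61 at 18 to 28 h, against 7.50 to 7.96 with a median of 7.79 at 1 to 8 h. The ranges overlapped, and the call was lost when any of 4 single arrays was left out, with a difference as small as -0.16 (limma adjusted p = 0.104). The second probe set of Ccnb1 gave -0.40 (limma adjusted p = 0.000662).

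Ccnd1 encodes cyclin D1, which carries mitogen signals into the cycle and is also expressed outside it. On its brightest probe set its level was lower at 8 h than at 1 h and 28 h after every surgery. At 1 h it was at 9.16, 8.86 and 8.95 in proximal arrays and at 8.47, 8.52, 8.52 and 8.88 in distal arrays, against 8.78, 8.77 and 8.68 in sham arrays. At 8 h it was at 7.71, 7.23 and 7.16 in proximal arrays and at 7.61 to 7.89 in the 5 distal arrays, against 7.49, 7.99 and 8.09 in sham arrays. At 28 h it was at 8.83, 9.05 and 9.05 in proximal arrays and at 8.89, 9.26 and 9.13 in distal arrays, against 8.89, 9.01 and 8.88 in sham arrays. In each of the 3 groups the low point was at 8 h and did not overlap the values at 1 h. A moderated F test over the 8 hours, added after the values were seen, called Ccnd1 after proximal lesion (limma adjusted p = 2.48e-08), distal lesion (3.2e-08) and sham surgery (0.000235), in comparisons that called 50%, 16.7% and 53.6% of all genes. Without sham array b at 12 h the sham value was 3.41e-05. All proximal and sham arrays at 1 h and 28 h were of one technical set and all those at 8 h of another, so hour and set cannot be told apart in these 2 groups. Of the 12 distal arrays at the same hours 11 were of one set.

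With the low 8 h values in its early window, Ccnd1 rose in distal ganglia by 0.81 at 18 to 28 h against 1 to 8 h (SE 0.11, limma adjusted p = 9.73e-08) and in sham ganglia by 0.57 (SE 0.12, limma adjusted p = 0.000328). The sham call was lost with the technical set as a random block (0.30, limma adjusted p = 0.33). Within single sets the sham difference covered other hours. It was 0.11 in the set with sham arrays at 1, 24 and 28 h, which lacks the low 8 h arrays. In the set with those at 3 and 8 h it was 0.35, with 1 late array, at 18 h. The distal change minus the sham change was 0.24 (95% interval -0.09 to 0.58, limma adjusted p = 0.273). It passed with the set as a random block (0.55, limma adjusted p = 0.0408), another quantile normalization (0.36), array weights (0.32) and on both dimmer probe sets (1.29 and 0.76). Its 3 probe sets disagreed over time in sham, where the dimmer ones gave -0.78 and -0.24. The dimmer ones correlated weakly with the brightest one (r = 0.18 and 0.39 over 72 arrays). Both had their lowest mean at 24 h in proximal and in sham ganglia, so the course of Ccnd1 in these 2 groups rests on 1 probe set. In distal ganglia the dimmer ones were lowest at 8 h and 12 h. Their distal differences over time were 0.51 (limma adjusted p = 0.246) and 0.53 (limma adjusted p = 0.0222). In sham ganglia over time 2 of the 9 tested members rose, Ccnd1 and Ect2 (0.28, limma adjusted p = 0.0433), beside 35.4% of all genes called higher and 4.94% lower. With the set as a random block both calls were lost, Ect2 at 0.16 (limma adjusted p = 0.653), and Pcna was called lower (-0.34, limma adjusted p = 0.0481).

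Ccne1, cyclin E1 of the entry into S phase, differed by -0.14 in distal ganglia over time (95% interval -0.30 to 0.03, limma adjusted p = 0.237). Pcna, the sliding clamp of DNA polymerases, was the brightest member, at percentile 94.6. In distal arrays it was at 10.37 to 11.58 with a median of 11.37 at 18 to 28 h, against 11.09 to 11.40 with a median of 11.17 at 1 to 8 h. The difference was 0.16 (SE 0.08, limma adjusted p = 0.174), and 0.22 (limma adjusted p = 0.00681) without the 18 h array labelled do, whose 10.37 lay far below the other late values. It passed with the technical set as a block as well (0.17, limma adjusted p = 0.004). Over all alternatives run for this comparison the Pcna difference lay between 0.09 and 0.23.

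Of the 9 members tested in distal ganglia over time, 3 fell (Racgap1, Cdk1 and Ccnb1), 1 rose (Ccnd1) and 5 did not pass the test. Over all tested genes, 9.87% were called lower and 15.4% higher. The median difference of the 9 members was -0.14, beside 0.026 for all tested genes. Racgap1 was the 1 member whose late and early distal arrays did not overlap.

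The size of the Racgap1 fall was set against each other member array by array in the distal samples, a comparison added after the values were seen. The log2 value of Racgap1 minus that of Cdk1 averaged 1.85 ± 0.18 at 18 to 28 h, against 2.74 ± 0.19 at 1 to 8 h (SD, n = 12 each), a difference of -0.89. This was the smallest of the 9 shifts, and the others ran from -1.05 for Ccnb1 to -1.99 for Ccnd1. Each had an adjusted p of 2e-05 over the 9 pairs in a two-sided permutation test with 100000 resamples, the smallest p it can give. The 9 pairs share the same Racgap1 values, so these are not 9 separate results. For a gene that changed little, the shift mainly repeats the fall of Racgap1. Only the change of each difference over time is read, not its level. All 12 late arrays lay below all 12 early arrays for 8 of the 9 members, and 11 of 12 did for Mki67. On these probe sets the level of Racgap1 shifted down relative to each of the other 9 genes, with the dimness of Ect2, Aurkb, Top2a and Mki67 as stated.

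**Figure D2:**
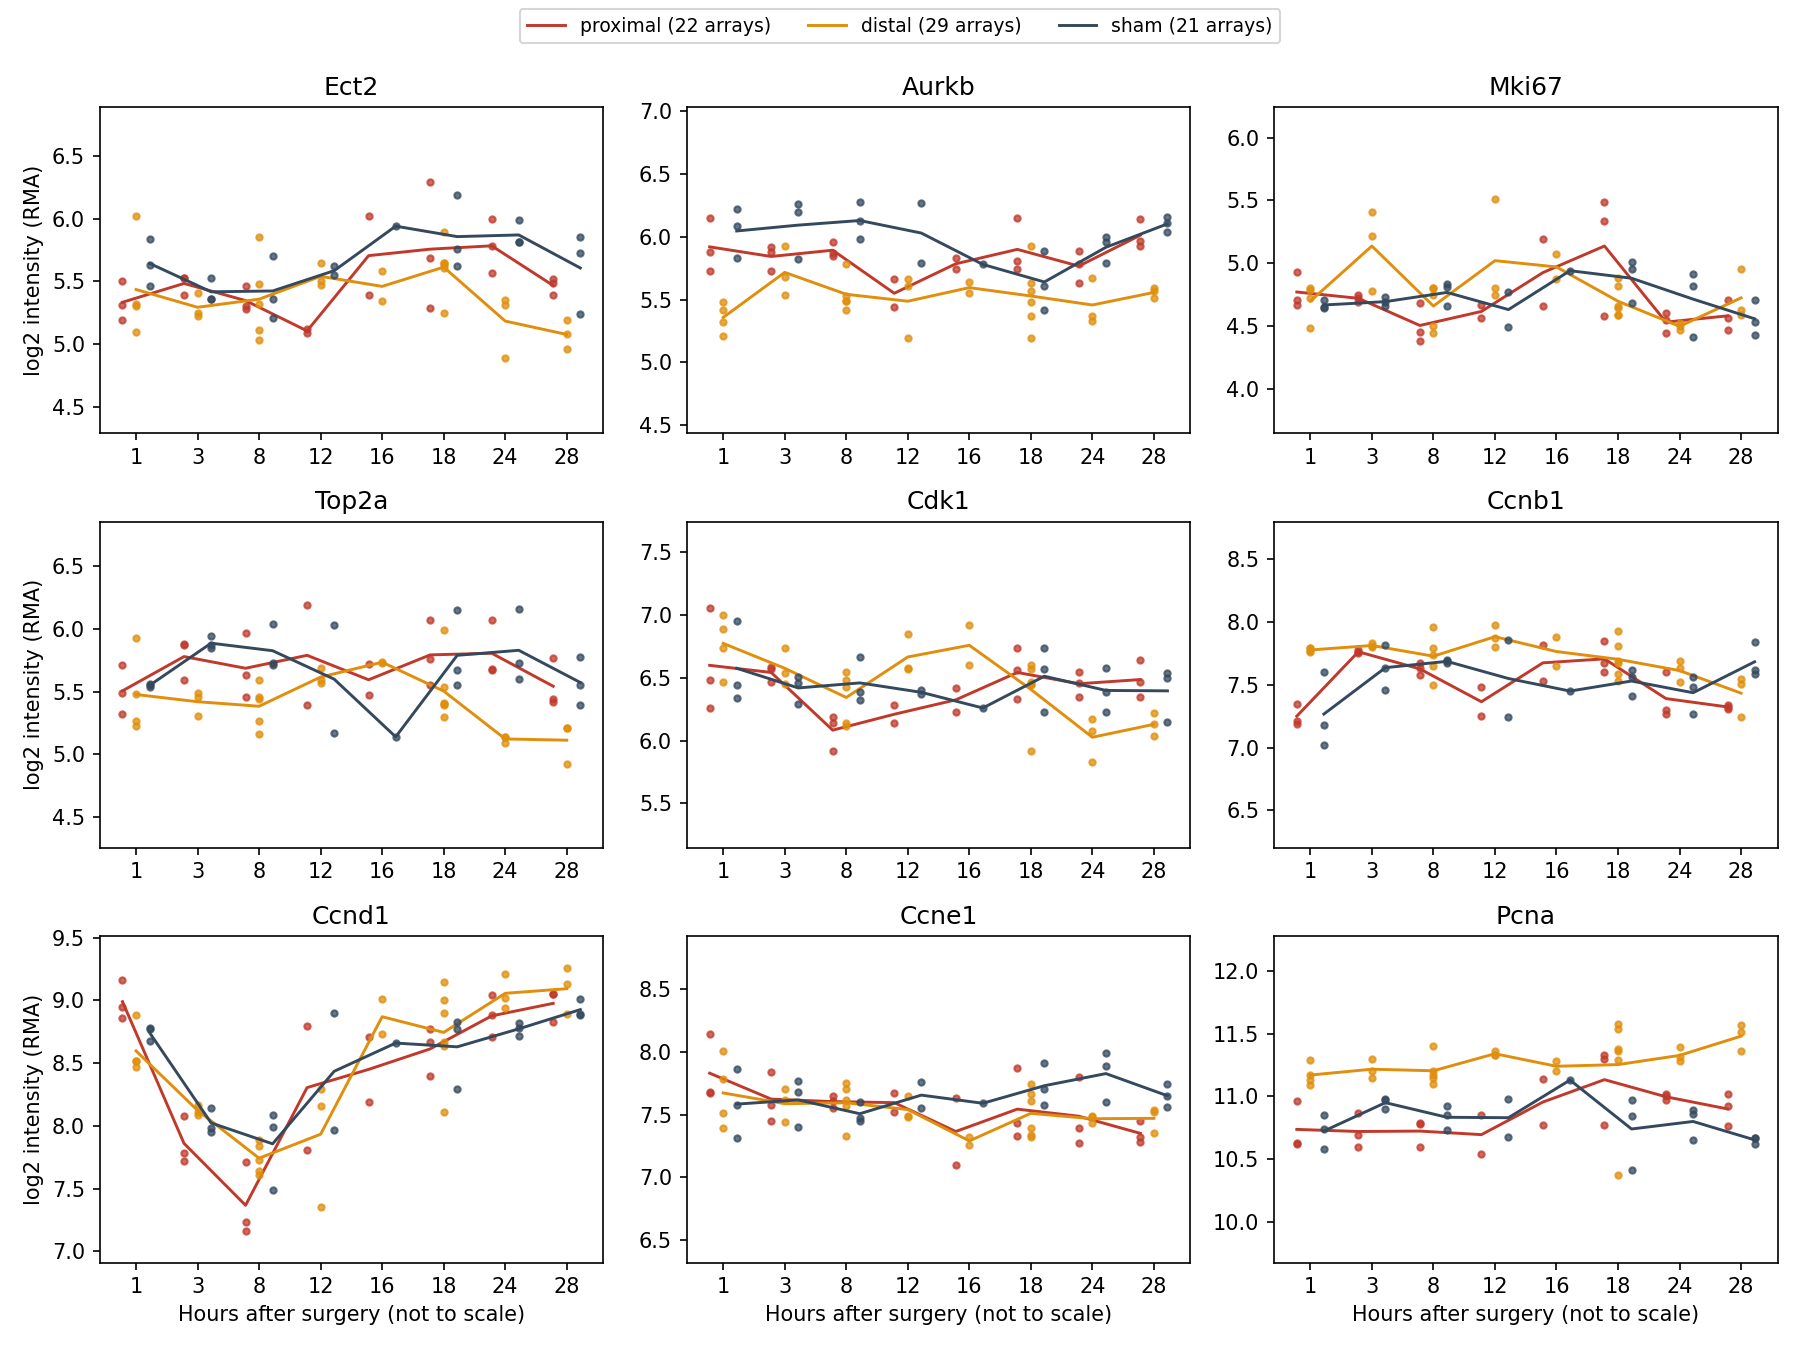
Log2 intensity (vertical axes, each spanning the same 2.6 log2 units) of the other 9 members at each of the 8 hours (horizontal axes, evenly spaced). Points are arrays and lines join the means of proximal, distal and sham groups. Ccnd1 had its lowest mean at 8 h in every group, and the single low Pcna point at 18 h is the distal array at 10.37.

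In proximal against sham ganglia at 18 to 28 h, the comparison from which Racgap1 was chosen, the other members are given as a description. Cdk1 differed by 0.06, Ccnb1 by -0.08, Top2a by -0.02, Ect2 by -0.11, Aurkb by 0.01 and Mki67 by 0.03, each on the log2 scale. Ccnd1 differed by 0.04, with 8.40 to 9.05 in proximal arrays against 8.29 to 9.01 in sham arrays. Ccne1 was at 7.27 to 7.87 with a median of 7.39 in proximal arrays, against 7.56 to 7.99 with a median of 7.70 in sham arrays, a difference of -0.28. Pcna was at 10.76 to 11.33 with a median of 11.00 in proximal arrays, against 10.41 to 10.97 with a median of 10.67 in sham arrays, a difference of 0.28. Of the members besides Racgap1, Ccne1 and Pcna had an adjusted p under the threshold, where 9.71% of all tested genes did (4.36% lower and 5.35% higher). Ccne1 lost it in 12 and Pcna in 13 of the 18 fits that left out 1 array, and both lost it when the fit held only the arrays compared, when the sham hours were pooled, and when the 18, 24 or 28 h arrays were left out. Both kept it with the technical set as a block (Ccne1 -0.28 and Pcna 0.28). The groups overlapped for every member except Racgap1. For all tested genes, 0.538% had all proximal arrays below all sham arrays.

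**Figure D3:**
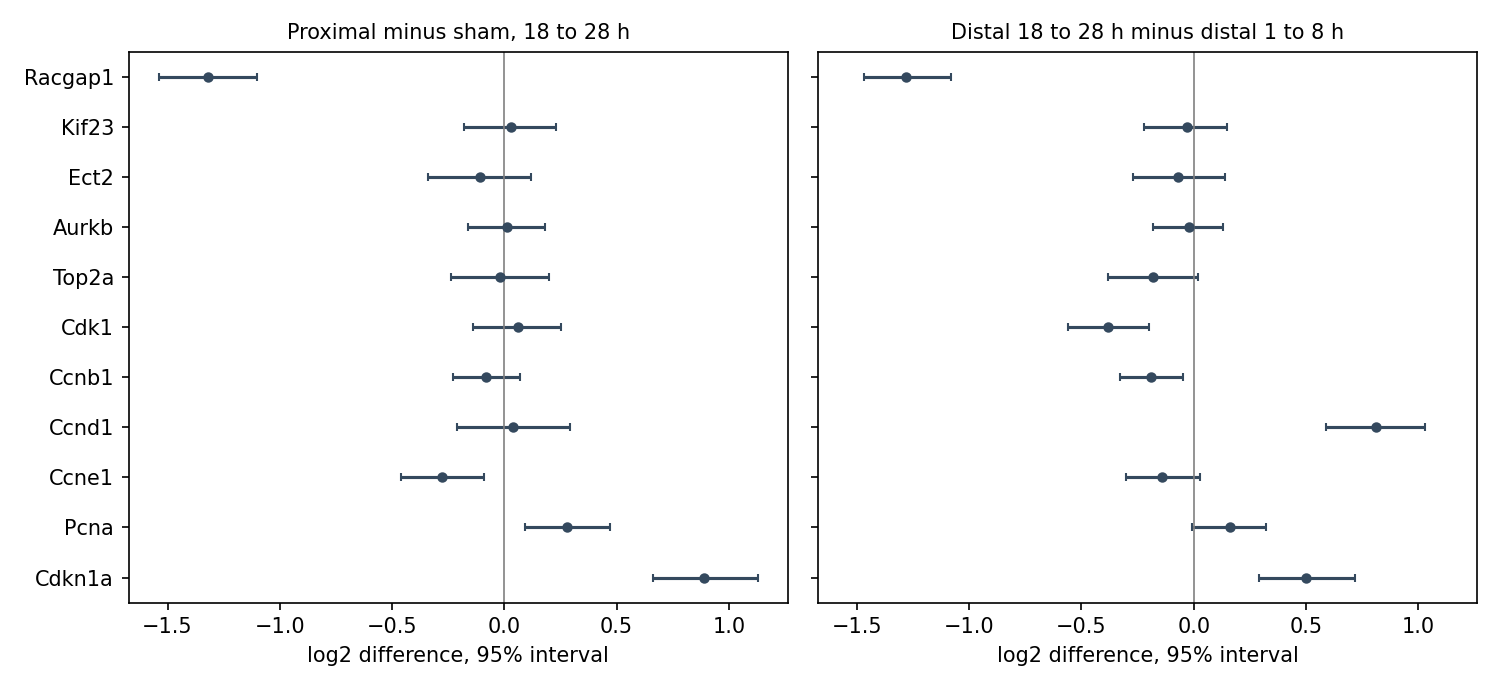
Log2 differences with 95% intervals (horizontal axis) for the 9 tested members with Kif23 and Cdkn1a (vertical axis), for proximal minus sham ganglia at 18 to 28 h (left) and distal ganglia at 18 to 28 h minus 1 to 8 h (right). Racgap1 lay at -1.32 and -1.28, apart from the intervals of all other genes shown.

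Cdkn1a, which encodes the CDK inhibitor p21 and halts the cycle, moved the other way. It was at 8.61, 8.64, 8.77, 8.29, 8.85 and 8.38 at 18 h in distal arrays, at 9.09, 9.10 and 9.10 at 24 h and at 9.52, 9.20 and 9.20 at 28 h, against 8.05 to 9.08 with a median of 8.49 at 1 to 8 h. The late distal arrays were high at 24 and 28 h and overlapped the early ones at 18 h. The difference was 0.50 (SE 0.11, 1.42-fold, limma adjusted p = 0.000202), and the distal change exceeded the sham change by 0.57 (limma adjusted p = 0.00451). In proximal ganglia at 18 to 28 h Cdkn1a was at 8.55 to 9.63 with a median of 9.20, against 7.97 to 8.65 with a median of 8.19 in sham ganglia. A second, dim probe set of Cdkn1a below the filter gave a distal difference of -0.06 (limma adjusted p = 0.704).

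The wider division machinery was read from gene lists that held the members too. Of 13 tested genes of cytokinesis and the central spindle, 2 fell in distal ganglia over time, Racgap1 and Incenp, a scaffold of the chromosomal passenger complex (-0.34, limma adjusted p = 0.000802), and 0 rose, also at an unadjusted p under 0.05. Of 20 genes of mitosis and chromosome segregation, 2 fell, Cdk1 and Ccnb1, and 1 rose, Espl1, the separase that cuts cohesin (0.82, limma adjusted p = 6.7e-12). Of 22 genes of DNA replication, 3 rose, namely the helicase subunits Mcm6 (0.66) and Mcm7 (0.21) and the polymerase subunit Pold1 (0.37), and 0 fell (2 at an unadjusted p under 0.05). Among 20 cyclins, CDKs and E2F factors, 5 rose and 3 fell, with E2f5 (0.53) and Cdk2 (0.30) among the rises. The median differences of these lists were -0.03, 0.00, 0.05 and -0.03, beside 0.026 for all tested genes. In the same comparison 9.87% of all tested genes were called lower and 15.4% higher.

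Among 8 CDK inhibitors 2 rose in distal ganglia over time, Cdkn1a and the phosphatase gene Cdkn3 (0.60, limma adjusted p = 0.00115). Among 19 GTPase activating proteins for Rac and Cdc42, the biochemical family of Racgap1, 5 rose and 4 fell. Both counts stand beside 15.4% of all tested genes called higher and 9.87% lower. Arhgap24 (-0.42) and Arhgap44 (-0.40) were among the falls and Myo9b (0.34) and Arhgap1 (0.24) among the rises.

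In proximal against sham ganglia at 18 to 28 h the calls of the lists are given as a description, since Racgap1 was chosen there. Of the 13 cytokinesis genes 1 was called higher, Prc1 (0.25), and 1 lower, Racgap1, as its choice implies. Of the 20 mitosis genes limma called 0 (2 at an unadjusted p under 0.05, both lower). Among all tested genes, 4.36% were called lower and 5.35% higher. Of the 22 replication genes 1 was called higher, Pcna. Of the 20 cyclins, CDKs and E2F factors 1 was called higher, E2f5 (0.45), and 2 lower, Ccne1 and Cdc25b (-0.29). The inhibitors Cdkn1a (0.89) and Cdkn3 (0.54) were called higher. Chn1 (-0.22) and Chn2 (-0.39), GTPase activating proteins for Rac known as chimaerins, were the 2 of 19 in the family of Racgap1 called lower.

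**Figure D4:**
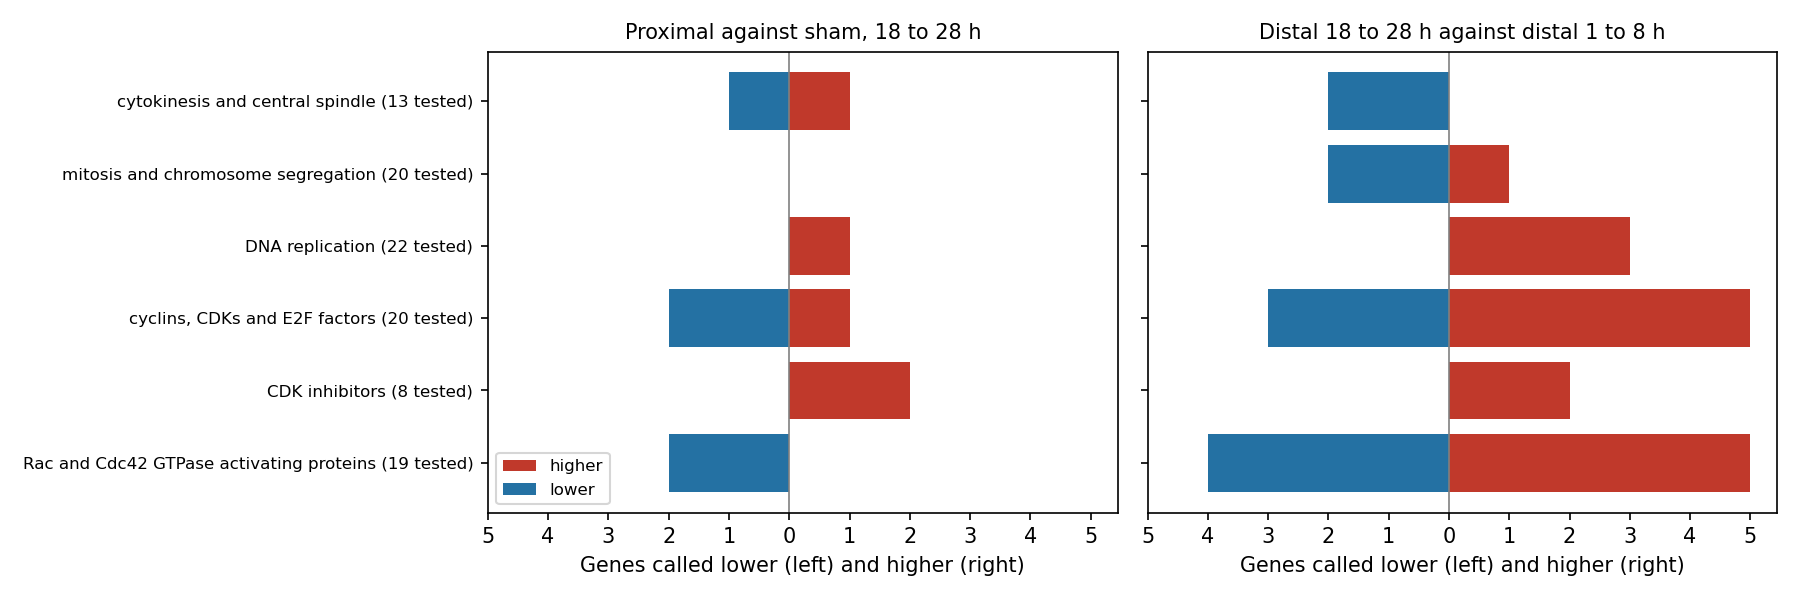
Number of genes called lower (left of 0) and higher (right of 0) in each of 6 lists (vertical axis, with the number tested), for proximal against sham ganglia at 18 to 28 h and for distal ganglia at 18 to 28 h against 1 to 8 h. Bars to the left stayed at 4 genes or fewer, and the mitosis list had none in the proximal comparison.

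Cell type markers moved beside these results. In distal ganglia over time 9.87% of all tested genes were called lower and 15.4% higher. The shares were 4.36% lower and 5.35% higher in proximal against sham ganglia at 18 to 28 h. In sham ganglia over time they were 4.94% lower and 35.4% higher. Of 14 markers of sensory neurons, 6 fell and 0 rose in distal ganglia over time (0 rose at an unadjusted p under 0.05 either), the lowest being Isl1 (-0.84) and Rbfox3 (-0.44), and the mean level of the list was 11.96 to 12.33 at 18 to 28 h, against 12.07 to 12.46 at 1 to 8 h. Of 13 macrophage markers 4 rose, among them Tyrobp (0.76), and 3 fell, among them Mrc1 (-1.02), and the list mean was 7.22 to 7.88 at 18 to 28 h, against 7.35 to 7.89 at 1 to 8 h. In proximal against sham ganglia at 18 to 28 h, 2 neuronal markers were called lower and 7 of 13 macrophage markers higher, with list means of 7.43 to 8.34 in proximal arrays against 7.0 to 7.70 in sham arrays for macrophages and 11.72 to 12.08 against 11.80 to 12.25 for neurons. Of 5 satellite glia markers 3 rose in distal ganglia over time, Sox10 (0.81), Fabp7 (0.90) and Gja1 (0.43), with list means of 9.73 to 10.27 at 18 to 28 h against 9.56 to 10.01 at 1 to 8 h. Of 6 fibroblast markers 4 fell, the lowest being Lum (-0.44), with list means of 10.77 to 11.90 at 18 to 28 h against 11.47 to 11.94 at 1 to 8 h. Of 7 Schwann cell markers 2 rose and 1 fell, and of 3 erythroid markers 2 fell. Sham ganglia changed likewise over time, with 4 of 5 satellite glia markers higher, 3 of 6 fibroblast markers lower and 2 of 3 erythroid markers lower, and 0 markers of these 3 lists were called for the distal change minus the sham change, where limma called 22.7% of all genes lower and 7.21% higher. For the neuronal markers 9 of 14 were called lower and 1 higher in that difference, with 8 higher and 3 lower in sham ganglia over time. The part of these markers in the levels of Racgap1 was not tested.

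The genes whose pattern was most like that of Racgap1 were not division genes on these lists. Over the 43 proximal and sham arrays, each taken as its difference from the sham mean of its hour, the 5 highest correlations were with Htr1d, a serotonin receptor gene (r = 0.93), Hoxb6, a homeobox gene (0.92), Cdh10, a cadherin gene (0.92), Tcerg1l (0.90) and Abcg4, a transporter gene (0.89). Over the 29 distal arrays the same genes had r = 0.91, 0.82, 0.94, 0.70 and 0.58, in that order. The log2 difference in distal ganglia over time was -1.06 for Htr1d and -1.32 for Cdh10. The arrays of a group share lesion, hour and technical set, so these values are a description. Without sham array b at 12 h the correlations of these 5 genes over the other 42 proximal and sham arrays changed by at most 0.03, which moved Tcerg1l to rank 11.

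Of the members, Ccne1 came closest over the proximal and sham arrays with r = 0.74, at rank 166 of 12275 genes, and had 0.45 over the distal arrays, at rank 1814. Cdk1 came closest over the distal arrays with r = 0.62, and had 0.00 over the proximal and sham arrays. Ccnb1 had 0.19 over the proximal and sham arrays and 0.53 over the distal arrays. Ect2 had 0.33 and 0.12, and Kif23 had -0.25 and -0.08. Cdkn1a was opposite, with -0.74 and -0.58.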

How the data were processed

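The deposited values are RMA log2 intensities of probe sets, as the authors processed them per the submitters' processing notes; the RMA version, and whether all 72 arrays were normalized together, are not given in the sources used here. Control probe sets (57 of 31099) were left out. The platform annotation gave 1 symbol to 20826 probe sets, several to 436 and none to 9780, and each of 14217 genes was read from its brightest probe set. A filter at the 25th percentile of probe set means (5.463 log2) left 12276 genes.

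One model with a mean for each of 24 lesion and hour groups was fitted to all 72 arrays with limma 3.58.1 in R 4.3.3 (48 residual degrees of freedom, empirical Bayes with trend, two-sided). Calls used an adjusted p (Benjamini-Hochberg over all tested genes) below 0.05. Window comparisons average hours equally, so they can differ slightly from differences of window means. Differences between 2 genes were tested by permutation in scipy 1.17.1. Technical sets came from Ward clustering of dim probe sets, cut at 4 groups.

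The members and lists were chosen with earlier results of these data known. Named were the 10 members, Kif23, Cdkn1a, up to 4 genes per list with the smallest p, and the 5 genes most correlated with Racgap1; Atf3 and the marker genes check labels and tissue. The fit was tested on simulated data with 200 changed genes. Alternatives covered filters, normalization, array weights, other probe sets, fewer arrays, pooled sham arrays, set blocks (fixed where the comparison can be estimated, otherwise random) and replicate blocks, and leaving out hours or single arrays. A further gene list is not reported here. Array letters paired arrays at 1, 12 and 18 h only (all correlations of deviations over 0.1), and 12 of 20 pairs passed that limit, so letters were not treated as pairs.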

Additional observations from a re-analysis of the deposited data

Results flagged for a closer look

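In 36 tests of a gene in a distal group of 4 to 6 arrays, the highest or lowest array lay far from the others 5 times, and chance alone gives about 1 in 20. Distal array do at 18 h stood apart for 3 members, with Top2a at 5.99 against 5.30 to 5.54 in the other 5 arrays, Cdk1 at 5.92 against 6.44 to 6.60, and Pcna at 10.37 against 11.29 to 11.58. It is the 1 distal array that clustered with proximal and sham arrays in technical set C, and its Racgap1, at 7.89, did not stand apart. Distal array do at 1 h had Ccnd1 at 8.88 against 8.47 to 8.52 in the other 3 arrays. Distal array c at 8 h had Racgap1 at 8.91 against 9.16 to 9.18 in the other 4 arrays.

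The change from 1 to 8 h to 18 to 28 h differed between distal and sham ganglia, by a test of the difference itself, for 2 members and for Cdkn1a. The distal change minus the sham change was -1.53 for Racgap1 (limma adjusted p = 1.1e-11), 0.57 for Cdkn1a (0.00451) and -0.33 for Cdk1 (0.0491). The Cdk1 value was -0.22 (limma adjusted p = 0.451) with the technical set as a random block, and lost its call in 27 of 42 fits that left out 1 array. The Cdkn1a value was 0.03 on the second, dim probe set and 0.40 without the 28 h arrays, neither of which passed. With the set as a random block Pcna (0.51, limma adjusted p = 0.00168) and Ccnd1 (0.55, limma adjusted p = 0.0408) also differed, and the calls of Racgap1 (-1.31) and Cdkn1a (0.71) held. Ect2 (-0.20), Ccne1 (-0.19) and Ccnb1 (-0.31) were not called with that block. Array weights called Ect2 (-0.44), Ccnb1 (-0.28) and Ccne1 (-0.24) lower, and Pcna (0.32) and Ccnd1 (0.32) higher. Another quantile normalization called Ect2 lower (-0.49), and Pcna (0.44) and Ccnd1 (0.36) higher. Ccne1 was called lower with only the arrays compared (-0.30), and Ccnb1 on its second probe set (-0.39).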

How the results depend on the processing

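Over all alternatives run for the members, Kif23 and Cdkn1a, 1537 values kept their direction and call, 77 lost a call, 63 gained one and 6 reversed. Racgap1 in distal ganglia at 18 to 28 h against 1 to 8 h kept its call in every alternative, between -1.39 and -1.18, and its shift relative to the other members kept its direction and call in 18 of 18 (-2.21 to -0.84). For Racgap1 in distal ganglia at 12 and 16 h the difference without 16 h was -0.42. In proximal against sham ganglia at 12 and 16 h it lost its call with array weights (-0.83), with only the arrays compared (-0.83), on the second probe set (-0.65), without 12 h (-1.19) and without 16 h (-0.47), and single arrays left out gave -1.03 to -0.47. In sham ganglia at 18 to 28 h against 1 to 8 h the difference became a call with the 50th percentile filter (0.25), only the arrays compared (0.25), array weights (0.32) and without 1 h (0.37), and single arrays left out gave 0.20 to 0.31. The 4 technical sets are named A, the nearly all distal one, to D. The set as a fixed block was not run for sham over time, distal minus sham changes and distal against sham, since set D shares no lesion and hour group with another set; a random block, added after the values were seen, took its place. Reversed values were Ccnd1 over time in sham on its dimmer probe sets (-0.78 and -0.24), and Cdkn1a on its second probe set in distal ganglia over time (-0.06) and against sham (-0.28). Aurkb (0.05) and Pcna (-0.04) reversed within set C in distal against sham. In that window set C held 1 distal and 1 sham array, both at 18 h. The distal one was the array labelled do, which stood apart for Pcna. The causes were not tested.

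Array letters share only a number. With the letter as a replicate block, Racgap1 in proximal against sham ganglia was 0.00 at 1 to 8 h, -0.96 at 12 and 16 h and -1.32 at 18 to 28 h, and as a random replicate block it was -1.28 in distal ganglia over time. The replicate block moved the counts of called genes in the 3 proximal comparisons to 701, 4432 and 2504, against 16, 14 and 1192 without it.

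Counts of called genes moved by over 1.5 times elsewhere. For proximal against sham at 18 to 28 h (1192) they were 1809 with another quantile normalization, 3429 with array weights, 2569 with pooled sham arrays and 2336 with the set as a block. They were 2517 within set B, whose arrays of this window were all at 18 h, and 755 and 504 without 24 and 28 h. They ran from 0 to 2087 at 1 to 8 h (16) and from 0 to 1358 at 12 and 16 h (14). For distal over time (3103) they were 6564 with array weights and 5399 within set A, and for distal at 12 and 16 h (172) they ran from 46 to 2526. They ran from 317 to 9176 for sham over time (4947) and from 1236 to 7650 for distal minus sham changes (3677). For distal against sham (7590) they were 88 with the set as a random block. With that block they were 342 for sham over time and 1236 for distal minus sham changes.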
